A study of Mus musculus with 12 samples.

Results

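The 98 genes described here encode the machinery of oxidative phosphorylation, 85 of them in the nucleus and 13 in the mitochondrial genome. They were chosen by name from 27503 genes: symbols that begin with Nduf, Sdh, Uqc, Cox4 to Cox8, Atp5, mt-Nd, mt-Co, mt-Cytb or mt-Atp, without the Ndufaf and Sdhaf assembly factors and without names holding -ps. The names fitted 103 genes, and 98 of these reached 1 FPKM (fragments scaled for transcript length and library size) in at least 3 of 12 libraries. Just inside that limit lay Ndufa4l2, with a mean of 0.992 FPKM, and Cox6c2, with 0.719 to 5.43 FPKM. Just outside lay Ndufs6b, with 0.30 to 1.61 FPKM, and Cox7a1, with 0 to 1.68 FPKM. Cox4i2, Cox6b2 and Cox8b stayed under 1 FPKM in each of the 12 libraries. The prefix Uqc also takes in Uqcc1, Uqcc2 and Uqcc3, which assemble complex III and are not parts of it, while the complex III subunit Cyc1 has another prefix and is counted below among the electron carriers.

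The RNA came from B16F10, a transplantable mouse melanoma line, carrying IRF7 either as the wild type or with the C435A exchange (alanine in place of a cysteine). IRF7 is a transcription factor of type I interferon genes. Cells of each form were left as controls or given IFNα, which makes 4 groups of 3 libraries. They are named here by form (wild type, mutant) and treatment (control, IFNα). The sources used here do not say how the exchange was introduced, how many clones stand behind each form, or at what dose and time IFNα was given. The libraries were poly(A)-selected. No label says that libraries of a group come from different cultures. The p-values therefore speak of the spread among these libraries alone, and that spread may be technical.

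In oxidative phosphorylation, complexes I and II pass electrons from NADH and succinate to coenzyme Q, complex III passes them on to cytochrome c, and complex IV reduces oxygen with them. Complexes I, III and IV move protons out of the mitochondrial matrix, and complex V, the ATP synthase, makes ATP as the protons return. All complexes but complex II mix subunits of both genomes. In tumour cells the balance between this route and glycolysis varies widely, and in cells of the melanocyte lineage the coactivator Ppargc1a is known as one of its regulators.

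The mitochondrial genes lie so close together that some share bases, and this bears on how their counts can be read. Of the 13 genes 12 lie on the plus strand and 1, mt-Nd6, on the minus strand, and the start and end of all 13 in the deposited table equal those of GRCm38. The pair with the longest overlap and the pair on opposite strands are shown with the shared bases in capitals and the 10 bases before them in lower case, on the plus strand of GRCm38. The capitals of the first open with the ATG of mt-Atp6 and close with the stop of mt-Atp8, at chrM:7927-7969. The capitals of the second, at chrM:13552-13565, close mt-Nd5 and, read from the other strand, mt-Nd6.
mt-Atp8 and mt-Atp6, chrM:7917-7969: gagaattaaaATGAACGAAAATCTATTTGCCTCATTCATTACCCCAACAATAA
mt-Nd5 and mt-Nd6, chrM:13542-13565: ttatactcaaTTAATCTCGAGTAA
The overlaps measure 43 and 14 bases. The sources used here do not say whether the counting used strand, so reads of mt-Nd6 and of RNA from the strand opposite to it cannot be told apart.

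For the nuclear genes, promoters were read for letters that factors of respiratory genes are known to bind: NRF1 (GCGCANGCG), the ETS family to which GABPA belongs (CCGGAAG) and YY1 (AAGATGGCG), on both strands. Of the 85 nuclear genes 69 matched a promoter in the RefSeq table (GRCm38.p6), and the search covered the 250 bases before each start. A gene was counted if any of its promoters held the letters. The NRF1 letters were in 15 of 69 (21.7%), against 5.86% of all 27025 genes in the RefSeq table. The ETS letters were in 12 of 69 (17.4%, against 7.83%) and the YY1 letters in 1 of 69 (1.45%, against 0.710%). The genes of that table were not matched to the members in base content or gene type, so these shares show no enrichment particular to respiratory genes. A match is a description of letters, not of binding. Windows are shown for the genes that had a match among the 3 nuclear genes with the smallest p between the lines under control conditions (Ndufb4, Ndufb10, Ndufb4c) and under IFNα (Cox6a2, Atp5j, Cox6a1), on the gene's strand, with the motif in capitals.
Ndufb4 with the NRF1 letters, chr16:37654526-37654584: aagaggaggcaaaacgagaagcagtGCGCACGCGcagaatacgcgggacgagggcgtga
Atp5j with the YY1 letters, chr16:84835031-84835089: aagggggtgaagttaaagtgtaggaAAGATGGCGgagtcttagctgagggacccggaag
Cox6a1 with the NRF1 letters, chr5:115349087-115349145: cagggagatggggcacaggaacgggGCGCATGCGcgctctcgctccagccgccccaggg
The window of Atp5j also holds the ETS letters at its end. That of Cox6a1 is followed closer to the start by an ETS match on the other strand.

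Library totals ran from 60511573 to 75927461 counts. The 8 melanocyte markers summed to between 6844 and 10790 CPM in the 12 libraries, which fits the label of the line. They summed to 7976 to 9568 CPM in the wild-type controls and to 6844 to 7864 CPM in the mutant controls. Irf7 lay at 11.6, 12.8 and 12.5 FPKM in the wild-type controls and at 4.99, 4.44 and 5.20 FPKM in the mutant controls (log2 fold change −1.23 ± 0.169 SE, adjusted p = 0.00570, edgeR). With IFNα it lay at 8.84, 9.87 and 8.45 FPKM in the wild type and at 4.63, 4.69 and 7.23 FPKM in the mutant (−0.62 ± 0.167, adjusted p = 0.113). The 4 erythroid markers summed to 0 to 24.6 CPM and the 2 brown fat markers to 0 to 1.85 CPM over the 12 libraries. Transcripts of lung were present in 8 of 12 libraries. The sum of 8 lung markers was 0.122 to 42.7 CPM in the wild-type controls, 45.9 to 62.5 with IFNα in the wild type, 49.6 to 60.9 in the mutant controls and 0.0408 to 66.2 with IFNα in the mutant, with no marker at 0 throughout. The libraries that stand apart below are wild-type control 3 and wild-type IFNα 1, whose TMM scaling factors were above 1.1 (0.955 to 0.997 in the other 10 libraries), and mutant IFNα 3.

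Per length, the highest transcripts of the machinery came from the mitochondrial genome. Together the 13 genes summed to 16546 to 30852 FPKM, and the 85 nuclear genes to 17108 to 21906 FPKM. The highest library exceeded the lowest 1.86-fold in the mitochondrial sum and 1.28-fold in the nuclear sum. All members together made up 7.54% to 10.3% of the FPKM total of a library, and the mitochondrial genes took 1.60% to 2.79% of its counts. The mitochondrial sum divided by the nuclear sum ranged from 0.798 in mutant control 1 to 1.57 in wild-type IFNα 3, and was under 1 in 4 libraries. Within groups the SD of the log2 level had a median of 0.362 over the mitochondrial genes and 0.198 over the nuclear genes.

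The mitochondrial genes fell into an order that followed their complexes. The ATP synthase genes mt-Atp8 (mean 3995 FPKM over 12 libraries) and mt-Atp6 (3324), and the genes of the catalytic core of complex IV, mt-Co1 (3765), mt-Co2 (2933) and mt-Co3 (2158), came first. The cytochrome b gene mt-Cytb of complex III (1900) followed. The 7 genes of the membrane arm of complex I came last: mt-Nd1 (1220), mt-Nd2 (932), mt-Nd6 (828), mt-Nd5 (723), mt-Nd4 (599), mt-Nd4l (393) and mt-Nd3 (122). Each gene's range over the 12 libraries overlapped that of its neighbour in this order, except that mt-Nd3, at 76.1 to 169.9 FPKM, lay wholly under mt-Nd4l, at 251 to 599. The distance between libraries of 1 group was wide. For mt-Co1 the wild-type controls read 4789, 4246 and 2644 FPKM, the wild-type IFNα libraries 3106, 4563 and 4475, the mutant controls 2930, 3920 and 3674, and the mutant IFNα libraries 3625, 3081 and 4134. The low values of the wild type are those of control 3 and IFNα 1, and the 4 groups overlapped.

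**Figure D1:**
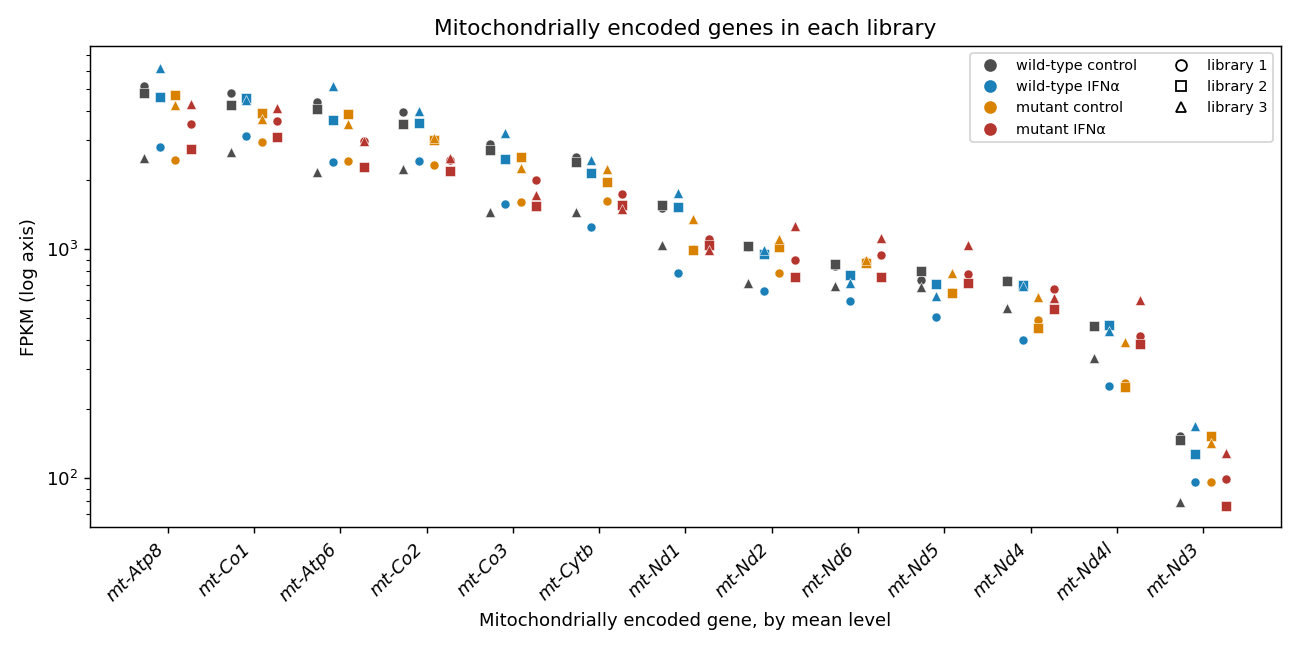
FPKM (log axis) of the 13 mitochondrially encoded genes in order of mean level, 1 point per library, with colour for the group and shape for the library number. In mt-Atp8 to mt-Nd1, wild-type control 3 and wild-type IFNα 1 are the lowest of their groups, and mt-Nd3 is the lowest gene at 76.1 to 169.9 FPKM.

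Of the 13 mitochondrial genes 7 have copies on chromosome 1 that share over 50% of their stretches of 50 bases, and all 7 copies were in the deposited table. The level of a copy tracked that of its mitochondrial original. Gm28661 shares 100% with mt-Co2 and stood at 0.983 to 0.992 times its FPKM. Gm28437 shares 99.9% with mt-Co3 and stood at 0.991 to 0.998 times. The copies of mt-Atp6 and mt-Nd4l, Gm10925 and Gm10222, stood at 1.05 to 1.08 and 1.01 to 1.04 times, and that of mt-Nd3, Gm28438, at 1.41 to 1.81 times. Where less sequence is shared the copy was lower, at 0.527 to 0.735 times for Gm28439 (62.2% shared with mt-Nd4) and 0.191 to 0.254 times for Gm29216 (51.1% with mt-Co1). The levels of these 7 genes are therefore uncertain, since fragments from original and copy cannot be told apart over the shared bases. The other 6, mt-Nd1, mt-Nd2, mt-Nd5, mt-Nd6, mt-Cytb and mt-Atp8, share at most 50% with another gene.

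**Figure D2:**
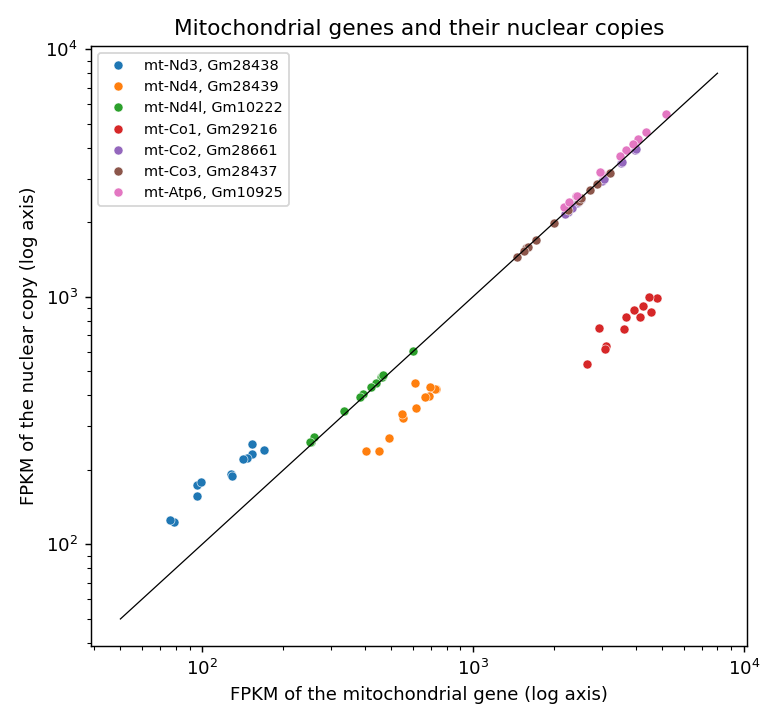
FPKM of 7 mitochondrial genes (x, log axis) against FPKM of their copies on chromosome 1 (y, log axis), 1 point per library, with a line where both are equal. The points of mt-Co2, mt-Co3, mt-Atp6 and mt-Nd4l lie along the line, those of mt-Nd3 above it, and those of mt-Nd4 and mt-Co1 below it.

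Ratios between mitochondrial neighbours varied less than their levels, with exceptions in mutant IFNα 3. The FPKM of mt-Atp6 divided by that of mt-Co3, which follows it on the genome, was 1.47 to 1.61 in the other 11 libraries and 1.72 in mutant IFNα 3. The ratio of mt-Nd4l to mt-Nd4 was 0.529 to 0.703 in 11 libraries and 0.979 in mutant IFNα 3. The ratio of mt-Atp8 to mt-Atp6 was 1.01 to 1.46 and that of mt-Nd3 to mt-Co3 0.049 to 0.075, both highest in mutant IFNα 3. In the 1 pair far apart that was computed, the ratio moved more: mt-Atp6 stood at 2.84 to 8.30 times mt-Nd5. Of these genes, mt-Atp6, mt-Co3, mt-Nd3, mt-Nd4 and mt-Nd4l have the uncertain levels named above. The ratio of mt-Nd6 to mt-Nd5, on opposite strands, was 1.0 to 1.37, with its highest values in mutant control 1 (1.37) and mutant control 2 (1.35).

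The nuclear genes spanned mean levels from 0.992 to 943 FPKM, with a median of 165. In complex I, with 38 nuclear genes, the highest mean was that of Ndufb9 (626 FPKM), an accessory subunit of the membrane arm, and the lowest that of Ndufs1 (12.9 FPKM), the core iron-sulfur subunit of the NADH-oxidising arm. Complex II is encoded by 4 nuclear genes alone. Its iron-sulfur subunit Sdhb had the highest mean of all nuclear genes (943 FPKM) and its flavoprotein Sdha a mean of 28.6 FPKM. In complex III Uqcr10, a small subunit, led (671 FPKM) and the assembly factor Uqcc1 was lowest (15.7 FPKM). In complex IV Cox4i1, the largest nuclear subunit, led (797 FPKM). In complex V the catalytic subunit Atp5b led (842 FPKM) and Atp5k, subunit e, was lowest (39.2 FPKM).

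Isoform families were dominated by the ubiquitous forms. Cox6a1 had a mean of 732 FPKM and its heart and muscle form Cox6a2 a mean of 4.60 FPKM. Ndufa4, counted here with complex IV, stood at 405 to 765 FPKM, and Ndufa4l2, a paralog known to be induced by hypoxia, at 0.337 to 1.60 FPKM. Of the tissue-restricted forms below the limit, Cox4i2 reached 0.657 FPKM, Cox6b2 0.108, Cox7a1 1.68 and Cox8b 0.898. Cox8b was above 0 only in wild-type IFNα 2 and 3 and in mutant control 1 and 2. The brown fat markers Ucp1 and Cidea were above 0 in the same libraries only, at sums of 0.811 to 1.85 CPM. The part of brown fat cells in the Cox8b values was not tested. The ubiquitous partners Cox4i1, Cox6b1 and Cox8a lay at 610 to 931, 487 to 741 and 476 to 604 FPKM. The 3 genes for subunit c of the ATP synthase rotor stood at 48.4 to 73.4 FPKM (Atp5g1), 197 to 238 FPKM (Atp5g2) and 106 to 249.8 FPKM (Atp5g3). Cox7a2 and Cox7a2l lay at 346 to 548 and 189 to 281 FPKM. Cox7b lay at 204 to 341 FPKM. Every stretch of Ndufb4c is also in Ndufb4, and Cox6c2 shares 52.8% with Cox6c, so the values of these copies are uncertain.

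The nuclear genes were mostly on 1 side of their mean in several libraries, and the median of other short genes lay on the same side. In each library the median deviation of the 85 genes from their mean over 12 libraries (log2, TMM-scaled CPM) was computed, and the same for the 2430 other nuclear genes whose longest transcript is under 1 kb. Wild-type control 3 lay at −0.34 for the nuclear members and −0.27 for the short genes, and wild-type IFNα 1 at −0.38 and −0.32. In these libraries 70 and 79 of 85 members were below their mean. Others went the other way: in wild-type control 3 Ndufa8, an accessory subunit of complex I, read 249.5 FPKM against 183 and 192 in the other wild-type controls, and Sdhd, a membrane anchor of complex II, 221 against 158 and 165. The mutant controls lay at 0.22, 0.22 and 0.22 and at 0.19, 0.19 and 0.22, with 73, 78 and 76 members above their mean. The members are themselves short: their median longest transcript is 1.001 kb against 2.868 kb for other tested nuclear genes, and 42 of 85 (49.4%) are under 1 kb against 14.2%. Mutant IFNα 3 departed from this, at −0.20 for the members and 0.02 for the short genes. The part of transcript length in the differences below was not tested beyond a fit with that trend removed.

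**Figure D3:**
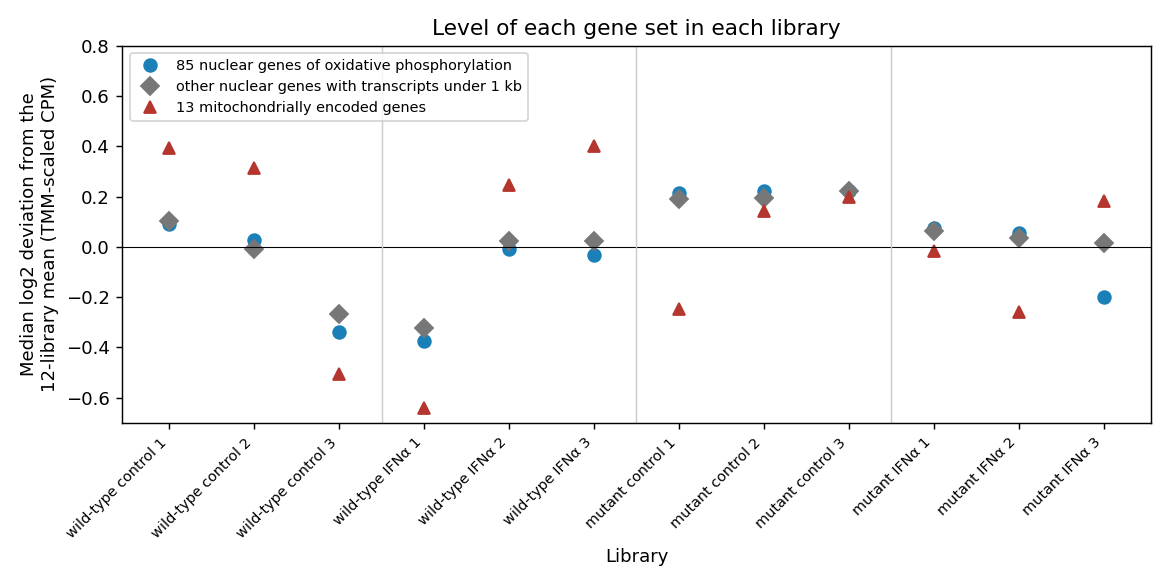
Median log2 deviation from the mean over 12 libraries (TMM-scaled CPM), for 85 nuclear members, 2430 other nuclear genes with transcripts under 1 kb, and 13 mitochondrial members, in each library. Nuclear members and short genes lie close together except in mutant IFNα 3, and the mitochondrial genes range from −0.64 to 0.40.

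Mutant IFNα 3 split the nuclear genes. Ndufs3, a core subunit of complex I, read 68.1, 70.6 and 35.1 FPKM in the 3 mutant IFNα libraries. Ndufb6, an accessory subunit of its membrane arm, read 418, 424 and 208 FPKM, and Atp5g3 read 192, 214 and 106 FPKM. The membrane anchor Sdhd of complex II read 157, 197 and 96.6 FPKM. Against these, Cox6a1 read 744, 729.7 and 1063 FPKM and Ndufa4 551, 550.2 and 765 FPKM. For both sets the third library is the one that stands apart, low in the first 4 genes and high in the last 2.

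With IFNα in the wild type, no member passed the test, and only 4 of all 17590 genes did in edgeR. Members that did not respond therefore cannot be told apart from a treatment with little measurable effect in these libraries. In edgeR's quasi-likelihood test 0 of 98 had an adjusted p under 0.05, where 0.0227% of all 17590 genes tested did, and limma and DESeq2 (0.387% of all genes in DESeq2) also called 0. In a bulk sample, fewer cells of a kind and less RNA per cell cannot be told apart in any of these values. At an unadjusted p under 0.05 there was 1 member, on the lower side (2.76% of all genes) and 0 on the higher (2.68%): Uqcrc1, a core protein of complex III. It read 207, 258 and 246 FPKM in the controls and 205, 194 and 203 FPKM with IFNα (log2 fold change −0.26 ± 0.114 SE, adjusted p = 0.902, edgeR). The groups did not overlap, but control 1 lay within 2 FPKM of IFNα 1. The next values were those of 4 complex I subunits, Ndufa8 (−0.26), Ndufv3 (−0.23), Ndufs7 (−0.25) and Ndufa11 (−0.23). Over the 85 nuclear genes the median was −0.04, with 26 positive (52.9% of all genes were), beside a median of 0.02 over all genes. That count was 2 without wild-type control 3, 8 and 9 without wild-type IFNα 3 and 2, 35 without wild-type control 2, and 51 and 50 without wild-type control 1 and wild-type IFNα 1. With the length trend removed the median was −0.03, with 33 positive. The FPKM of 7 nuclear genes did not overlap on the lower side (5.08% of all genes) and of 0 on the higher side (4.77%). The 95% interval of the fold change lay within 2-fold for 83 of 85 nuclear genes (65.8% of all genes).

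With IFNα in the mutant, 0 of 98 members passed in edgeR (0.00569% of all genes, 1 of 17590) and in limma, with the same limit. DESeq2 called 1 (0.952% of all genes in DESeq2), Ndufv3, an accessory subunit of the NADH-oxidising module of complex I. Ndufv3 read 28.7, 28.2 and 29.5 FPKM in the mutant controls and 22.4, 21.9 and 20.5 FPKM with IFNα, without overlap. Its edgeR value was −0.44 ± 0.112 (adjusted p = 0.282) and its DESeq2 value −0.43 (adjusted p = 0.0301). At an unadjusted p under 0.05 there were 13 nuclear genes on the lower side (4.62% of all genes), among them the accessory subunits Ndufc1 (−0.48), Ndufa3 (−0.50) and Ndufb10 (−0.37) of complex I and Cox6b1 (−0.37) of complex IV. On the higher side there was 1 member, the mitochondrial mt-Nd4l (5.7% of all genes). The number of members with such a p, 14 in both directions, moved with single libraries. It was 2 without mutant IFNα 3, and 4, 5 and 7 without mutant control 3, 2 and 1. It was 26 without mutant IFNα 1. Leaving out wild-type control 3 gave 25, leaving out IFNα 1 of the wild type gave 24, and leaving out both gave 41. With genes of a mean of at least 5 FPKM it was 29 of 95. Ndufc1 read 38.8, 38.5 and 25.4 FPKM with IFNα, beside 45.4, 47.4 and 48.1 FPKM in the mutant controls. The median over the nuclear genes was −0.25, with 15 of 85 positive (49.2% of all genes), and −0.16 without mutant IFNα 3. The FPKM of 39 nuclear genes did not overlap on the lower side (8.29% of all genes) and of 2 on the higher side (9.75%). The 95% interval lay within 2-fold for 82 of 85 (63.6% of all genes). The median was −0.17 when the dependence on transcript length was taken out of each library. The leukocyte markers summed to 87.9 to 98.8 CPM in the mutant controls and 45.8 to 68.5 CPM with IFNα, and the muscle markers to 54.6 to 69.9 and 34.2 to 41.8 CPM. Of the muscle markers, Tnnt2 had 2319 to 4040 counts over the 12 libraries and gave most of the sum. Ckm had 95 to 528 counts, Acta1 8 to 516 and Myh6 0 to 51. Lyz2 likewise gave most of the leukocyte sum, with 2268 to 4973 counts (Itgam 257 to 699, Ptprc 186 to 320). Lung transcripts were in 3 of 3 mutant controls and in 1 of 3 mutant IFNα libraries. The part of other cell types was not tested. By complex the medians were −0.29 (complex I), −0.09 (II), −0.33 (III), −0.18 (IV) and −0.25 (V).

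Between the lines under control conditions most nuclear genes were higher in the mutant, and none passed the test in edgeR. In the mutant controls 77 of 85 nuclear genes lay above the wild-type controls (50.6% of all genes did), at a median log2 fold change of 0.29 beside 0.00 over all genes. By complex, 35 of 38 nuclear genes of complex I were positive (median 0.31), 2 of 4 of complex II (−0.03), 10 of 11 of complex III (0.20), 14 of 15 of complex IV (0.29) and 16 of 17 of complex V (0.27). In edgeR 0 of 98 members passed (0.165% of all genes) and in limma 0, while DESeq2 called 1, Ndufb4 (1.26% of all genes in DESeq2). At an unadjusted p under 0.05 there were 25 nuclear genes, all higher in the mutant (6.07% of all genes). None was lower (4.63%). The FPKM of 37 nuclear genes did not overlap on the higher side (8.65% of all genes) and of 3 on the lower side (12.7%). The 95% interval lay within 2-fold for 81 of 85 (63.3% of all genes).

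The 5 nuclear genes with the smallest p between the controls did not pass in edgeR. Ndufb4, an accessory subunit of the complex I membrane arm, read 140.4, 141 and 99.3 FPKM in the wild-type controls and 188, 211 and 207 FPKM in the mutant controls (0.76 ± 0.188, adjusted p = 0.151 in edgeR; DESeq2 0.74, adjusted p = 0.0130). The mutant libraries all lay above the wild type. Ndufb10, of the same arm, read 238, 235 and 221 FPKM against 313, 324 and 308 FPKM (0.54 ± 0.151, adjusted p = 0.224). Ndufb4c read 119, 121 and 68.2 FPKM against 138, 182 and 190.2 FPKM (0.81 ± 0.251, adjusted p = 0.284), and shares its sequence with Ndufb4. Cox4i1 of complex IV read 746, 774 and 635 FPKM against 918, 931 and 914 FPKM (0.45 ± 0.146, adjusted p = 0.312). In Atp5j, coupling factor 6 of the stator stalk of the ATP synthase, the values were 38.7, 41.2 and 40.1 FPKM against 46.0, 45.2 and 44.3 FPKM (0.27 ± 0.0972, adjusted p = 0.348). None of these genes overlapped between the lines, and wild-type control 3 was the lowest library in 4 of the 5.

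Without wild-type control 3 the nuclear median of the mutant against the wild-type controls was 0.12, with 65 of 85 positive, and 3 members had an unadjusted p under 0.05. It was 0.13 with the length trend removed (65 positive) and 0.21 with library totals as scaling (61 positive). Lung transcripts were in all mutant controls and in 1 of 3 wild-type controls. With a term for the libraries that hold them the median was 0.25. The 9 heart and skeletal muscle markers summed to 41.7 to 53.3 CPM in the wild-type controls and 54.6 to 69.9 CPM in the mutant controls, and the 6 leukocyte markers to 46.7 to 80.2 and 87.9 to 98.8 CPM. As said above, Tnnt2 and Lyz2 gave most of these sums. The muscle markers Acta1, Ckm and Mb overlapped in FPKM between the wild-type and mutant controls, each highest in mutant control 2. The part of other cell types in the result was not tested.

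**Figure D4:**
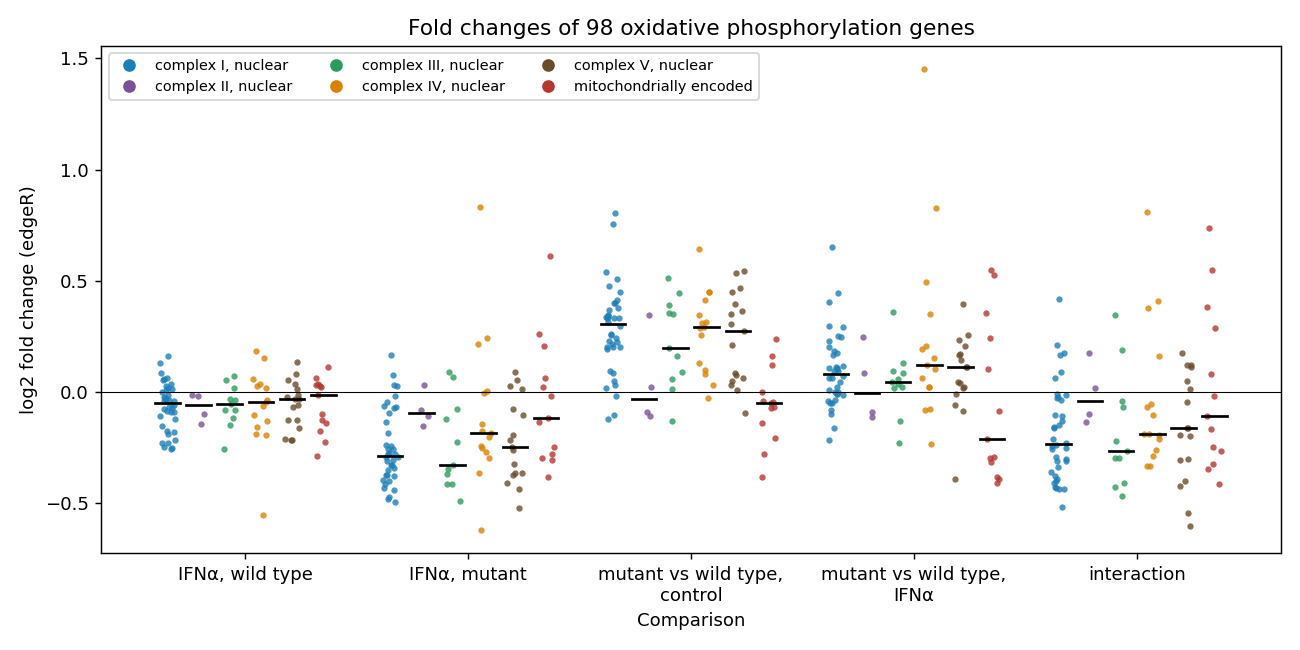
Log2 fold changes (edgeR) of the 98 genes in the 5 comparisons, 1 point per gene, with colour for complex or mitochondrial encoding and a black bar at each median. In the mutant against the wild-type controls the nuclear medians of complexes I, III, IV and V lie between 0.20 and 0.31.

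With IFNα in both lines the nuclear median between the lines was smaller, and it moved with single libraries. The median of the mutant against the wild type was 0.08, with 61 of 85 positive (48.5% of all genes), and 0.00 with the length trend removed. Without wild-type IFNα 1 it was 0.00, with 40 positive. Without mutant IFNα 3 the count went the other way, to 76 of 85 positive. The highest median with 1 library left out was 0.17. In edgeR 0 of 98 members passed (0.597% of all genes) and in limma 0, while DESeq2 called 4 (4.02% of all genes in DESeq2): Atp5j, Uqcrc1, Cox6a1 and Cox6a2. At an unadjusted p under 0.05 there were 11 nuclear and 2 mitochondrial genes on the higher side (7.56% of all genes) and 0 on the lower side (6.15%). The FPKM of 13 nuclear genes did not overlap on the higher side (6.47% of all genes) and of 0 on the lower side (12.1%). The 95% interval lay within 2-fold for 82 of 85 (62.7% of all genes).

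Atp5j showed the tightest groups. It read 40.0, 39.6 and 39.1 FPKM in the wild type with IFNα and 46.4, 51.3 and 49.0 FPKM in the mutant (0.40 ± 0.0973, adjusted p = 0.0829 in edgeR; DESeq2 0.40, adjusted p = 0.00195). Cox6a2 read 4.07, 2.85 and 3.88 FPKM against 6.50, 5.44 and 5.98 FPKM (0.83 ± 0.199, adjusted p = 0.0773; DESeq2 adjusted p = 0.0125). It is the muscle form of subunit 6a. The muscle markers summed to 35.6 to 51.9 CPM in the wild-type and 34.2 to 41.8 CPM in the mutant libraries with IFNα, again mostly from Tnnt2. Their part in the value of Cox6a2 was not tested. Cox6a1 read 649, 624 and 649.8 FPKM against 744, 729.7 and 1063 FPKM (0.49 ± 0.152, adjusted p = 0.163; DESeq2 adjusted p = 0.0407). Uqcrc1 read 205, 194 and 203 FPKM against 238, 230.0 and 257 FPKM (0.36 ± 0.114, adjusted p = 0.179; DESeq2 adjusted p = 0.0358). Ndufs8, a core iron-sulfur subunit of complex I, had 0.40 ± 0.143 (adjusted p = 0.223). The groups did not overlap in Atp5j, Cox6a2, Cox6a1 or Uqcrc1, and the highest library of Cox6a1 and Uqcrc1 was mutant IFNα 3.

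**Figure D5:**
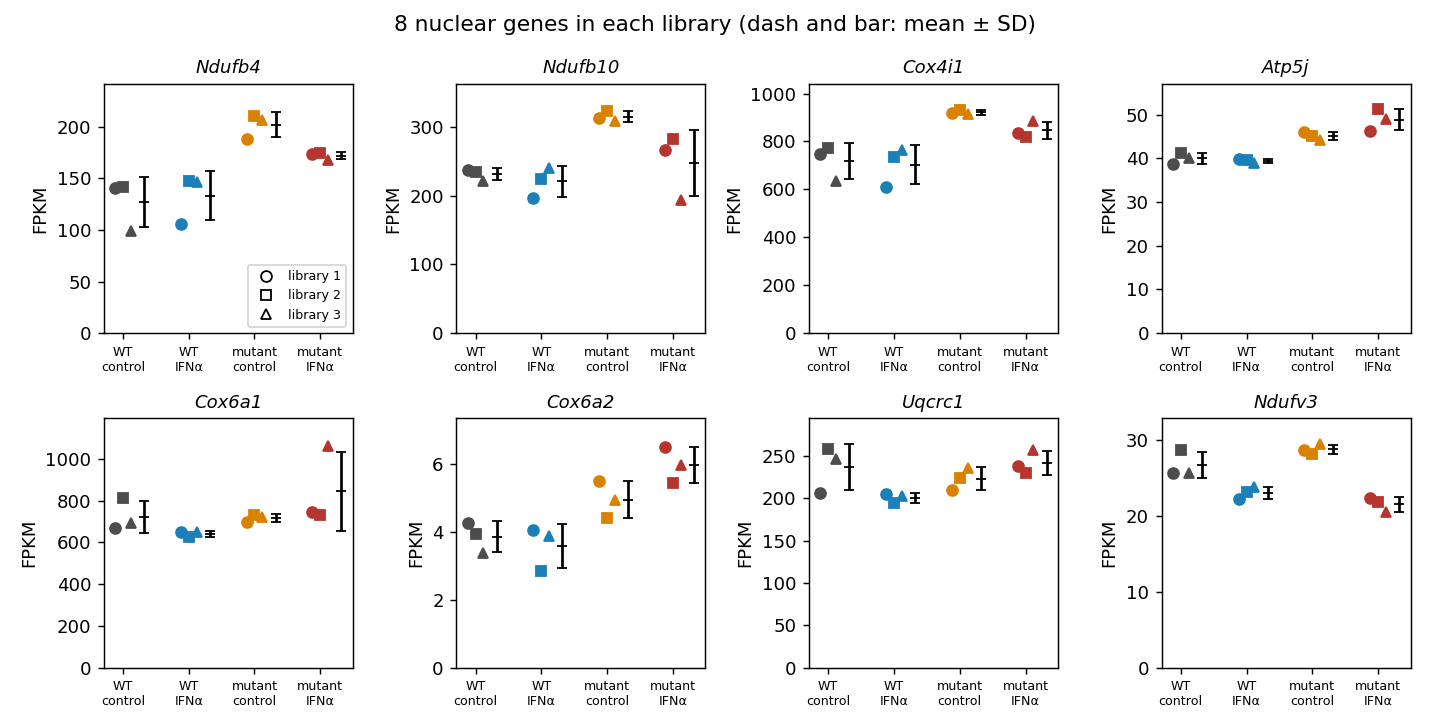
FPKM of 8 nuclear genes in each library (shape for the library number), with the mean ± SD of each group (n = 3) beside the points. The 8 genes were picked for small p-values in the comparisons. In Ndufb4, Cox4i1 and Atp5j the 3 mutant controls lie above the 3 wild-type controls (8.65% of all genes do). In Ndufv3 the mutant IFNα libraries lie at 20.5 to 22.4 FPKM against 28.2 to 29.5 in the mutant controls (8.29% of all genes lie lower without overlap).

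Ndufb4, Atp5j and Atp5o, the OSCP subunit of the stator, are the 3 nuclear genes of the set on chromosome 16. All 3 were positive in the mutant under both conditions, at medians of 0.45 without and 0.40 with IFNα. The 537 other genes tested on that chromosome had medians of 0.22 and 0.17, with 77.7% and 67.6% positive.

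For the mitochondrial genes no common displacement was resolved. For IFNα against control their median was −0.01 in the wild type (6 of 13 positive) and −0.12 in the mutant (5). For mutant against wild type it was −0.05 between the controls (3) and −0.21 between the IFNα libraries (5). The 95% interval lay within 2-fold for 13, 11, 13 and 10 of the 13 genes, in that order. With the length trend removed the medians were 0.03, 0.05, −0.24 and −0.31. Over the 13 alternatives other than leaving out 1 library, the median between the controls ran from −0.34 to −0.05. Between the IFNα libraries it ran from −0.50 to 0.05, with 12 of 13 negative. Standard errors were large, with a median of 0.271 against 0.164 for the nuclear genes in each of these comparisons. The 3 mitochondrial members with an unadjusted p under 0.05 in these comparisons were all complex I genes, as are 7 of the 13. Of these, 1 was higher with IFNα in the mutant (5.7% of all genes were). The other 2 were higher in the mutant between the IFNα libraries (7.56% of all genes). As said above, mt-Nd4l has a copy (98.8% shared), and reads of mt-Nd6 cannot be told apart from RNA of the opposite strand. In the mutant with IFNα, mt-Nd4l read 419, 385 and 599 FPKM against 260.1, 251 and 394 FPKM in the mutant controls (0.61 ± 0.276, adjusted p = 0.476), where the highest control exceeded 1 of the IFNα libraries. Between the lines with IFNα, mt-Nd5 read 507, 705 and 622 FPKM in the wild type and 780.1, 713 and 1040.2 FPKM in the mutant (0.55 ± 0.186, adjusted p = 0.204). Mt-Nd6 read 593, 769.7 and 708 FPKM against 944, 758 and 1112 FPKM (0.53 ± 0.177, adjusted p = 0.202). The groups of mt-Nd5 did not overlap (6.47% of all genes on the higher side), and those of mt-Nd6 did. In both genes the lowest wild-type library was IFNα 1. Of the 13 genes 1, mt-Nd6, had controls that did not overlap between the lines, on the higher side (8.65% of all genes). It read 846, 862 and 688 FPKM in the wild type and 889, 872 and 894 in the mutant. Between the lines with IFNα the other mitochondrial genes ran from −0.41 (mt-Co2) to 0.35 (mt-Nd4l).

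No member's response to IFNα was shown to differ between the lines. In the interaction of line and IFNα, 0 of 98 members passed in edgeR (0% of all genes), limma and DESeq2 (0.0604% of all genes in DESeq2). At an unadjusted p under 0.05 there were 2 members, both positive (2.75% of all genes, and 2.42% on the lower side): Ndufs7, the core subunit that carries the last iron-sulfur cluster of complex I (0.42 ± 0.177, adjusted p = 0.916), and Uqcrc1 (0.35 ± 0.162, adjusted p = 0.916). The next nuclear genes were Ndufc1 (−0.52), Cox6a1 (0.41) and Atp5mpl, a small proteolipid of the ATP synthase (−0.60). Ndufs7 read 73.7, 92.8 and 91.4 FPKM in the wild-type controls and 73.5, 69.3 and 75.8 FPKM with IFNα. In the mutant it read 71.3, 72.5 and 77.3 FPKM without and 78.1, 76.5 and 97.2 FPKM with IFNα, and the groups overlapped in both lines. The nuclear median was −0.19, with 20 of 85 positive (47.7% of all genes), and −0.07 without wild-type control 3. With the length trend removed it was −0.14, with 25 positive. The interval lay within 2-fold for 70 of 85 nuclear and 5 of 13 mitochondrial genes (53.4% of all genes).

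Among the genes that build, feed and regulate the machinery, 1 passed the test, in a comparison where 0.597% of all genes passed. Coq9, a protein of coenzyme Q synthesis, was higher in the mutant with IFNα (0.57 ± 0.103, adjusted p = 0.0232, edgeR), the only one called in any of the 5 comparisons of 21 genes of cytochrome c, coenzyme Q and other electron carriers. In that list Gpd2, which feeds electrons to coenzyme Q from glycerol 3-phosphate, had −0.65 ± 0.182 between the controls of the lines (adjusted p = 0.224). None of 17 assembly factors of complex I and of 33 of the other complexes passed. Their smallest p-values belonged to Timmdc1 (0.47, adjusted p = 0.0770, mutant against wild type with IFNα) and Ndufaf5 (−0.39, adjusted p = 0.368, IFNα in the mutant), and to Sdhaf1 (0.59, adjusted p = 0.144) and the copper chaperone Cox17 (−0.52, adjusted p = 0.304) in the same respective comparisons.

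The 78 mitochondrial ribosomal protein genes serve the translation of the 13 mitochondrial genes. In the mutant against the wild-type controls 68 were positive (50.6% of all genes were), at a median of 0.18. With IFNα in both lines 53 were positive (48.5% of all genes), at 0.12. The part of transcript length and of single libraries in these values was not tested. None passed. The smallest p-values belonged to Mrpl40 (0.61 ± 0.137, adjusted p = 0.117) between the controls and Mrps6 (0.48 ± 0.123, adjusted p = 0.0970) with IFNα. The 19 tricarboxylic acid cycle genes had 8 positive values in each of these comparisons, at a median of −0.06, with Idh3g (0.40) and Pcx (−0.43) at the smallest p. Of 13 carriers and channels tested, Vdac2 had −0.43 (adjusted p = 0.275, IFNα in the mutant) and Slc25a13 −0.38 (adjusted p = 0.202, between the lines with IFNα). Among 22 genes of mitochondrial DNA upkeep and transcription, Top1mt (0.41) and Mpv17 (0.34) had the smallest p, and among 17 of mitochondrial RNA processing, Hsd17b10 (0.36) and Lrpprc (−0.35), none past the threshold. Of 13 regulators tested, Ppargc1a had 0.53 ± 0.202 between the lines with IFNα (adjusted p = 0.254) at a mean of 0.791 FPKM, and Creb1 had 0.34 between the controls (adjusted p = 0.461).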

How the data were processed

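RNA of 12 libraries was sequenced, and groups and replicate numbers come from the sample titles. Tools named in the submitters' processing notes, without roles, are HISAT2 2.0.4, StringTie 1.3.4d, cutadapt 1.9, edgeR, DESeq2 and UMI-tools, with the build GRCm38. The authors deposited a table with raw counts and FPKM per gene and library, per the file headers; use of strand and of molecular identifiers in the counts is not given in the sources used here. Of counts from 1 to 30, 33.6% are multiples of 4 (23.3% of whole numbers are); how fragments were counted is not given in the sources used here.

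Counts were tested with edgeR 4.0.16 in R 4.3.3: TMM scaling, default filter on low counts (17590 genes), 1 quasi-likelihood fit over 12 libraries with 4 group means (biological coefficient of variation 28.9%), two-sided, Benjamini-Hochberg adjustment over all genes, threshold 0.05. Errors of fold changes are standard errors (n = 3 libraries per group). Levels are the deposited FPKM. Alternatives were DESeq2 1.42.0, limma 3.58.1 on log2(FPKM + 1) and log2(FPKM + 0.1), other scalings and filters, robust estimation, a replicate block, a lung term and each library left out; a removed length trend and the joint omission of 2 libraries were chosen after seeing the data. The code was tested on simulated data.

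The members, gene lists and tests were chosen with earlier results of these data known. Genes are named by rule: all mitochondrial members, nuclear members past the threshold or among the 5 smallest p of a comparison, the highest and lowest mean of each complex, isoform families, up to 4 genes of other lists past the threshold or else the 2 smallest p, and Irf7. The exceptions, chosen after their values were seen, are Ndufs3, Ndufb6, Sdhd, Atp5o, the pseudogene copies, Cox6c2 and Ndufs6b. Sequence sharing and lengths come from GENCODE M21 transcripts. Apart from the mitochondrial genome, positions in the table differ from GRCm38 and are not printed.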

Additional observations from a re-analysis of the deposited data

How the results depend on the processing

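Counts of members past the threshold were 0 in each comparison in edgeR, limma and all 12 fits that each left out 1 library. The alternative that moved them was DESeq2, with 1 (IFNα in the mutant), 1 (mutant against wild type, control) and 4 (mutant against wild type, IFNα), where its calls over all genes were 175, 232 and 632, in place of 1, 29 and 105 in edgeR; the cause was not tested. Of the medians, that of the mitochondrial genes in the interaction moved from −0.11 to 0.42 with the lung term. Leaving out 1 library gave nuclear medians of −0.17 to 0.03, −0.30 to −0.16, 0.12 to 0.39, 0.00 to 0.17 and −0.28 to −0.07 in the order of the comparisons, and mitochondrial medians of −0.26 to 0.23, −0.27 to 0.05, −0.34 to 0.13, −0.48 to 0.02 and −0.39 to 0.11. With both libraries of high TMM factor left out the nuclear medians between the lines were 0.12 and −0.02. With limma on log2(FPKM + 1), 60 and 41 nuclear values between the lines were positive, in place of 77 and 61; with library totals, 61 and 44. These scalings moved the median of all genes between the lines to −0.09, and limma with 0.1 added to −0.11. The labels do not say whether replicate numbers pair the samples. Correlations of the deviations of same-numbered libraries ran from −0.41 to 0.34 over 18 pairs (median 0.105). Over the 36 other pairs they ran from −0.42 to 0.66 (median 0.039). The 2 ranges overlap, so these values cannot tell whether the libraries were paired. With the replicate block 0 members passed in each comparison and the nuclear medians were −0.05, −0.26, 0.28, 0.08 and −0.19. Of 5865 values of 47 named genes under alternatives, 386 changed sign. Library totals were 60511573 to 75927461 counts, and log2 ratios between any 2 libraries in a group had SDs of 0.173 to 0.408; the part of depth was not tested.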

Other observations

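The mitochondrial ribosomal RNAs, which are not members, were also measured in these poly(A)-selected libraries. The small subunit RNA mt-Rnr1 read 1010.8, 975 and 523 FPKM in the wild-type controls, 601, 882 and 1163 in the wild-type IFNα libraries, 629.7, 815 and 821 in the mutant controls, and 713, 601 and 613 in the mutant IFNα libraries. The large subunit RNA mt-Rnr2 lay at 123 to 254 FPKM. The low wild-type libraries of mt-Rnr1 were control 3 and IFNα 1, as for the mitochondrial messenger RNAs. Cytochrome c itself (Cycs), the mobile carrier between complexes III and IV, lay at 455 to 701 FPKM, with its lowest values in the same 2 libraries.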
